A study of Rattus norvegicus with 105 samples.

Results

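Rat gastrocnemius that had carried depleted uranium pellets for 12 months was compared with gastrocnemius that had carried tantalum pellets for the same time. The comparison takes the 3 depleted uranium arrays and the 3 tantalum arrays of month 12, which are 6 of the 105 arrays of the series, and all 22954 probe sets that are not controls. The animals of both groups were male Sprague-Dawley rats, bought at about 30 days of age and kept for at least 2 weeks before surgery. Every rat of both groups had 4 sterilised pellets of a single metal, 2 in each hind limb, so the groups share the surgery and the foreign object and differ in the metal. The labels give no age at tissue collection. Each Clariom S Rat array, which reads most genes with 1 probe set, was given 250 ng of RNA that came from a pool of 2 to 3 animals. With 8 rats assigned to a metal and month, the pools are the replicates, and p-values measure the spread between pools rather than between rats. The question the design poses is what depleted uranium did to muscle beyond what an implanted, tolerated metal does.

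Depleted uranium is the dense metal that remains after the fissile isotope has been taken from natural uranium. It is weakly radioactive and chemically toxic, with the kidney as its best known target, and fragments of it can stay in the muscle of wounded people because surgery to remove them may do more harm than leaving them. Tantalum is a dense metal that tissue tolerates well and that is used in surgical implants. Gastrocnemius is a mixed muscle, in the rat mostly of fast fibres, whose slow and oxidative fibres are rich in mitochondria.

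Levels are the deposited log2 intensities, on which a step of 1 is a 2-fold change. Differences are log2 values, depleted uranium minus tantalum, ± the standard error of a limma fit to all 105 arrays. A probe set passed where its p-value, adjusted by Benjamini-Hochberg over the 22954 probe sets, was below 0.05. The labelled tissue matched its markers. The 9 fast-fibre markers lay between 12.5 and 13.8 on all 6 arrays and the 5 slow-fibre markers between 10.1 and 13.3, while the heart markers Nppa, Tnni3 and Myl7 lay between 5.6 and 6.6 and the kidney marker Umod between 4.8 and 5.2. The medians of the 6 arrays lay between 6.42 and 6.48. Their control probe sets, which stand for background, had medians between 3.87 and 4.17. Each array had at least 90.4% and at most 94.9% of its probe sets above its own such median. With 3 arrays a group, the small number of arrays sets the precision.

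After 12 months, 21 of 22954 probe sets (0.0915%) passed the test, 17 higher in depleted uranium muscle (0.0741%) and 4 lower (0.0174%). Only 5 of the 21 carry a gene symbol. Trmu, Hddc2 and Rmdn1 were lower, and Or13c3g and Pate14l2 were higher. The other 16 are known here by their probe set names alone. The sizes ran from 0.47 to 1.75 on the log2 scale. Of the 17 higher probe sets, 8 had a difference of at least 1, and none of the 4 lower ones reached that size. On 3 of the 17 (Or13c3g, TC1400001554.rn.2 and TC1700001666.rn.2) every tantalum array lay below its own control median, so that their sizes have no meaning as folds, and 2 of these 3 are among the 8. On all 21 the 3 depleted uranium arrays lay entirely beyond the 3 tantalum arrays, which was so for 11.7% of all probe sets. The unadjusted p was below 0.05 for 2049 probe sets, or 8.93%, with 1279 higher (5.57%) and 770 lower (3.35%). The count of 21 rested on single pools. It was 1 without depleted uranium replicate 1, 12 without replicate 2 and 48 without replicate 3. It was 13 without tantalum replicate 1, 0 without replicate 2 and 4 without replicate 3. Because the groups did not overlap on any of the 21, leaving out 1 array could not change a sign.

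**Figure D1:**
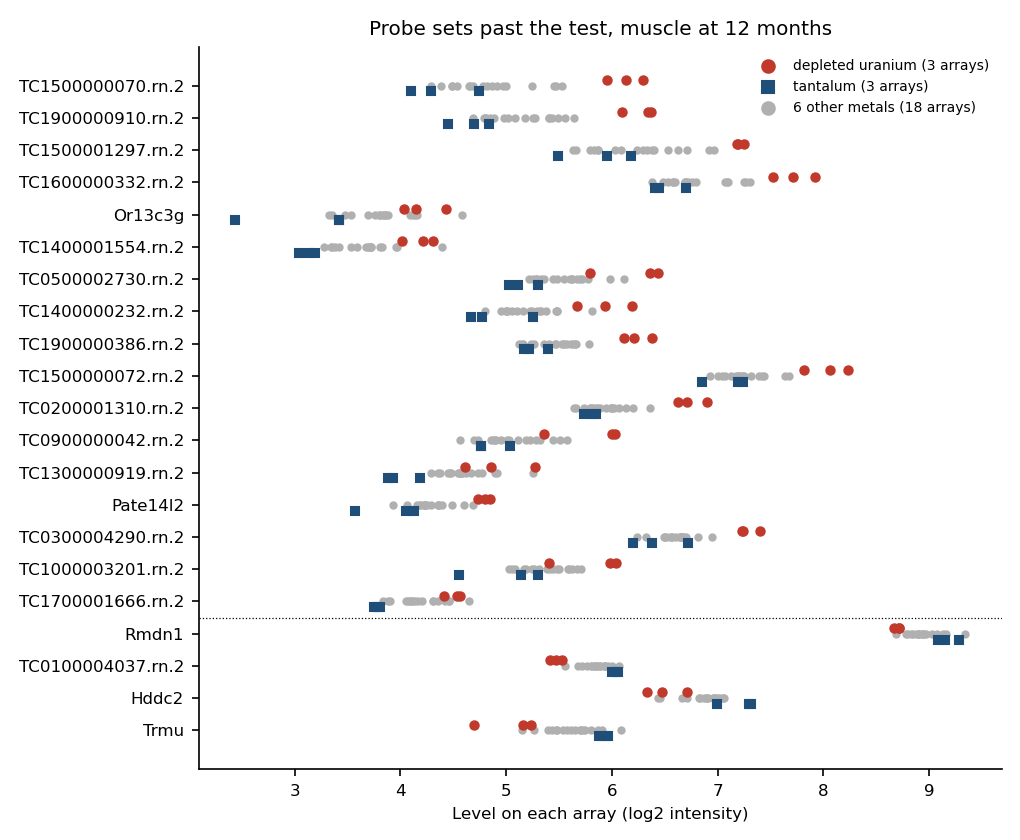
Level (log2 intensity, horizontal axis) of each of the 21 probe sets that passed on every array of month 12, with depleted uranium as red circles, tantalum as blue squares and the 18 arrays of the 6 other metals as grey circles. The 17 probe sets above the dotted line were higher and the 4 below it lower in depleted uranium, and the tantalum arrays lie mostly at the far end of the grey range.

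Trmu encodes the enzyme that adds a sulfur atom to the wobble base of several mitochondrial tRNAs, a modification that mitochondrial translation needs. Its level was 4.70, 5.23 and 5.16 on the depleted uranium arrays and 5.96, 5.87 and 5.95 on the tantalum arrays. The highest depleted uranium array thus lay below the lowest tantalum array, and the first depleted uranium array was the lowest of all 6. The difference was -0.90 ± 0.16 (adjusted p = 0.00621). Without depleted uranium replicate 1 it was -0.73, with an adjusted p of 0.118, and without tantalum replicate 2 it was -0.92, with an adjusted p of 0.0536. In the 18 arrays of the other 6 metals at 12 months, Trmu ran from 5.15 to 6.08 with a median of 5.63, and 17 of the 18 lay above the highest depleted uranium array. Against the mean of those metals the difference was -0.59 ± 0.12 (adjusted p = 0.0141), a comparison that shares the depleted uranium arrays with the first but not its tantalum arrays.

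Hddc2 encodes an HD domain phosphatase that acts on deoxynucleoside monophosphates. Its level was 6.33, 6.71 and 6.47 with depleted uranium and 7.32, 7.29 and 6.998 with tantalum. No arrays of the groups overlapped, and the difference was -0.70 ± 0.14 (adjusted p = 0.0161). Leaving out depleted uranium replicate 1 gave an adjusted p of 0.135, leaving out tantalum replicate 1 gave 0.0706 and leaving out tantalum replicate 2 gave 0.0967. Against the other metals, whose arrays ran from 6.43 to 7.06, the difference was -0.36 ± 0.11 and did not pass (adjusted p = 0.165).

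Rmdn1 encodes regulator of microtubule dynamics protein 1. It had the smallest change of the 21, with 8.67, 8.71 and 8.72 on the depleted uranium arrays against 9.15, 9.28 and 9.08 on the tantalum arrays. The depleted uranium arrays lay close together and all below the tantalum arrays, and the difference was -0.47 ± 0.11 (adjusted p = 0.0351). It missed the threshold without any 1 of the 6 arrays, with adjusted p-values between 0.0536 and 0.223. Against the other metals it was -0.25 ± 0.08 (adjusted p = 0.199). The fourth lower probe set, TC0100004037.rn.2, read 5.47, 5.53 and 5.41 with depleted uranium and 6.00, 6.06 and 6.04 with tantalum, and the difference was -0.56 ± 0.13 (adjusted p = 0.0337). It was the only lower probe set for which all 18 arrays of the other metals lay above the highest depleted uranium array. It did not pass without any 1 of the 6 arrays (adjusted p between 0.0686 and 0.177).

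The promoters of Trmu and Hddc2 are shown because these were the named genes that fell the most. They come from RefSeq on the assembly GRCr8 and hold 250 bases before and 50 after the start of the gene. RefSeq promoter entries were matched for 3 of the 5 named genes, Trmu, Hddc2 and Or13c3g. RefSeq has 2 entries for Trmu, of which the first by position is shown, and the motifs and GC content below hold for that window alone. It lies on the plus strand at chr7:118849342-118849641 and that of Hddc2 on the minus strand at chr1:28132928-28133227. Each is written 5′ to 3′ along its gene, and capitals mark matches, on either strand, to the CCAAT box (letters CCAAT, or ATTGG where it lies on the other strand) and to a form of the metal response element (letters TGCACNC).
Trmu: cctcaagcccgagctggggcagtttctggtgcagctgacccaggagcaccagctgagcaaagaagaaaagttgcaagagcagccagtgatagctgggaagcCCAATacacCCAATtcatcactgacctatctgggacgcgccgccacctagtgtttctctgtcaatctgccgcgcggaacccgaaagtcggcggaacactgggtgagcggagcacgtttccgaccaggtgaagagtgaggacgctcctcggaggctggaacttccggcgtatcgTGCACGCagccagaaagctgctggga
Hddc2: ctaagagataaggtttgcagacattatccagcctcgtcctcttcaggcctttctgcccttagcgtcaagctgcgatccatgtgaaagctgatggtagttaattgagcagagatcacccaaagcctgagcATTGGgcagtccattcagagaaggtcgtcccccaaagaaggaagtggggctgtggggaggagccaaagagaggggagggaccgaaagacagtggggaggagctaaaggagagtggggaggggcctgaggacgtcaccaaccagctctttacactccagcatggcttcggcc
This Trmu window held 2 matches to CCAAT, beginning at bases -149 and -140 from the start, and 1 match to TGCACNC, which began at base 25 of the gene. The Hddc2 promoter held 1 match to CCAAT. Over all 33469 promoters of this length, 37.5% held CCAAT and 12.2% held TGCACNC on at least 1 strand. The letters GGGCGG of the GC box (33.1% of promoters), TGACNNNGC of the antioxidant response element (12.1%), TGCGCNC of another metal response form (14.1%) and the NRF1 motif (0.852%) were in neither window. The motifs searched do not overlap each other at the marked places. The GC content was 59.0% for Trmu and 55.0% for Hddc2, beside a median of 51.7% over all promoters.

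Or13c3g, an odorant receptor of the G protein-coupled receptor class, was the higher of the named genes. Its level was 4.43, 4.03 and 4.14 with depleted uranium and 3.42, 3.41 and 2.44 with tantalum. All 3 tantalum arrays lay below their own control medians of 3.88, 4.17 and 4.11, the third by the most, and so did 1 depleted uranium array. The groups did not overlap and the fit passed (adjusted p = 0.0474), but not without tantalum replicate 3 (adjusted p = 0.448). Set against the tantalum control medians, the depleted uranium mean of 4.20 was at least 1.11-fold higher. Leaving out depleted uranium replicate 1, 2 or 3 gave an adjusted p of 0.220, 0.0750 or 0.0556, and leaving out tantalum replicate 2 gave 0.0638. The other metals, whose arrays ran from 3.33 to 4.58, overlapped the depleted uranium arrays, and that comparison did not pass (adjusted p = 0.591).

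Pate14l2 belongs to the prostate and testis expressed family of small secreted or membrane-bound proteins. It read 4.80, 4.84 and 4.73 on the depleted uranium arrays and 4.13, 4.05 and 3.57 on the tantalum arrays, which lay lower without overlap and, for 2 of the 3, below their control medians. The difference was 0.87 ± 0.19 (adjusted p = 0.0199). Leaving out depleted uranium replicate 1 or 2 gave an adjusted p of 0.118 or 0.0816, and leaving out tantalum replicate 2 or 3 gave 0.0638 or 0.301. All 18 arrays of the other metals lay below its lowest depleted uranium array, and the difference from them was 0.50 ± 0.14 (adjusted p = 0.108).

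The largest differences were on probe sets without a symbol. TC1500000070.rn.2 read 6.29, 6.13 and 5.95 with depleted uranium and 4.74, 4.29 and 4.10 with tantalum. The lowest depleted uranium array lay more than a 2-fold step above the highest tantalum array, and the difference was 1.75 ± 0.33 (adjusted p = 0.00621). Leaving out depleted uranium replicate 1 gave 1.67 (adjusted p = 0.10), leaving out tantalum replicate 2 gave 1.71 (0.0638) and leaving out tantalum replicate 3 gave 1.61 (0.0727). The other metals ran from 4.29 to 5.53 on this probe set, all below the depleted uranium arrays.

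TC1900000910.rn.2 read 6.37, 6.34 and 6.09 against 4.69, 4.83 and 4.45, a difference of 1.61 ± 0.35 (adjusted p = 0.0284). It kept its call only without depleted uranium replicate 3 among the 6 arrays left out in turn, and the highest adjusted p was 0.214. TC1600000332.rn.2, a brighter probe set, read 7.92, 7.71 and 7.53 against 6.70, 6.45 and 6.41, a difference of 1.20 ± 0.23 (adjusted p = 0.00621). The call was lost when depleted uranium replicate 1 (adjusted p = 0.10), tantalum replicate 2 (0.0638) or tantalum replicate 3 (0.0642) was left out. On these 2 probe sets, too, each of the 18 arrays of the other metals lay below the depleted uranium arrays.

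The 16 probe sets without a symbol came from 8099 such probe sets, of which 0.198% passed, and the 5 with a symbol came from 14855, of which 0.0337% passed. Dim probe sets were also frequent among the calls. The 30% of probe sets with the lowest mean over all arrays (below 5.45) held 12 of the 17 higher and none of the 4 lower probe sets. The other 70% held 5 higher and 4 lower ones.

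Depleted uranium and tantalum lay at opposite ends of the implants at 12 months on these probe sets. Of the 8 metals, depleted uranium had the highest group mean on all 17 higher probe sets and tantalum the lowest on 14. On the 4 lower probe sets depleted uranium had the lowest mean and tantalum the highest on each. All 18 arrays of the other metals lay below the lowest depleted uranium array on 9 of the 17. The mean level of the 17 was between 5.90 and 6.06 on the depleted uranium arrays, between 4.81 and 5.03 on the tantalum arrays and between 5.09 and 5.54 on the others. Because the 17 were chosen for the first contrast, this order is a description with no test.

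Depleted uranium against the equally weighted mean of the 6 other metals (aluminum, cobalt, copper, iron, lead and tungsten) gave 48 passing probe sets (0.209%), 46 higher (0.200%) and 2 lower (0.00871%). It gave 2 without depleted uranium replicate 1, 6 without replicate 2 and 38 without replicate 3. Of the 21 probe sets called against tantalum, 12 were among the 48, namely Trmu and 11 of the 17 higher ones, and both comparisons use the same depleted uranium arrays. Of the 48, 14 carry a symbol. Usp5, a deubiquitinase that takes apart free ubiquitin chains, was the other lower gene. It read 7.58, 7.57 and 7.56 with depleted uranium, below all 18 arrays of the other metals, which ran from 7.63 to 8.22. The difference was -0.35 ± 0.09 (adjusted p = 0.0472), and against tantalum it was -0.34 (adjusted p = 0.260).

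Among the higher genes of that comparison, Slc27a6, a fatty acid transport protein, read 6.62, 6.40 and 6.48 against 5.25 to 6.18 in the other metals. The depleted uranium arrays lay above all 18, by 0.65 ± 0.16 on average (adjusted p = 0.0408). Tent5a, a cytoplasmic poly(A) polymerase, read 7.74, 7.91 and 7.51 against 6.71 to 7.44, and differed by 0.59 ± 0.13 (adjusted p = 0.0246). Its difference from tantalum was 0.27 (adjusted p = 0.691). Pak5, a p21-activated kinase, differed by 0.64 ± 0.15 (adjusted p = 0.0276). The odorant receptors Or1e18, Or1e20b, Or7r1, Or10d5 and Or4c112 differed by between 0.65 and 1.31, with Or1e18 at 5.74, 6.02 and 5.21 against a median of 4.46 in the other metals. Or1e20b had the same values as another probe set, TC1000003249.rn.2. Its signal cannot be given to a single gene, and both probe sets are counted among the 48. Or1e18 also stood 1.32 above tantalum, without passing there (adjusted p = 0.101).

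Tantalum against the same 6 metals gave 0 passing probe sets in limma, with 1760 at an unadjusted p below 0.05. For the 17 higher probe sets the tantalum mean lay between 0.13 and 0.75 below the other metals, with a median difference of -0.37, and the depleted uranium mean lay between 0.30 and 1.28 above them, with a median of 0.70.

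The families that make up dim probe sets stood higher with depleted uranium as a body. Odorant receptors detect odours in the nasal epithelium. Of 977 such genes on the array, 814 had a difference above 0, with a median of 0.22, whereas 51.1% of all probe sets lay above 0 and their median was 0.0046. Or13c3g was the only one of them that passed. The depleted uranium arrays lay above all tantalum arrays for 215 odorant receptor genes and below them for 8, beside 7.22% and 4.45% of all probe sets. The mean level of the family was 4.73, 4.68 and 4.52 on the depleted uranium arrays and 4.46, 4.40 and 4.38 on the tantalum arrays, without overlap. The other metals ran from 4.36 to 4.63, so that 1 of the 3 depleted uranium arrays, replicate 3, lay within their range. Replicate 3 was the lowest array within each metal but tungsten, and among the replicate 3 arrays that of depleted uranium was the highest. The vomeronasal receptors, which detect pheromones, followed the same course, with 77 of 94 above 0 and a median of 0.21, which became 58 of 94 and 0.088 after cyclic loess normalization.

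Dim probe sets as a whole leaned the same way, with 67.4% of the dimmest 30% above 0. With all probe sets ordered by mean level and cut into 10 equal parts, the median difference went down from 0.13 in the dimmest part, where 72.6% lay above 0, to -0.0562 and -0.0499 in the brightest parts, where 31.8% and 32.4% did. The dimmest 30% had a mean level of 4.62, 4.56 and 4.52 on the depleted uranium arrays and 4.46, 4.47 and 4.44 on the tantalum arrays. The share of probe sets above the control median was 94.9%, 92.9% and 93.4% against 93.4%, 90.4% and 90.8%. After cyclic loess normalization, chosen after this course was seen, the median of each of the 10 parts lay between -0.0067 and 0.0164. The odorant receptors then had a median of 0.14, with 683 of 977 above 0, and 9 of the 21 probe sets passed, 7 of them higher. The part of this course in the differences of single dim probe sets was not tested.

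**Figure D2:**
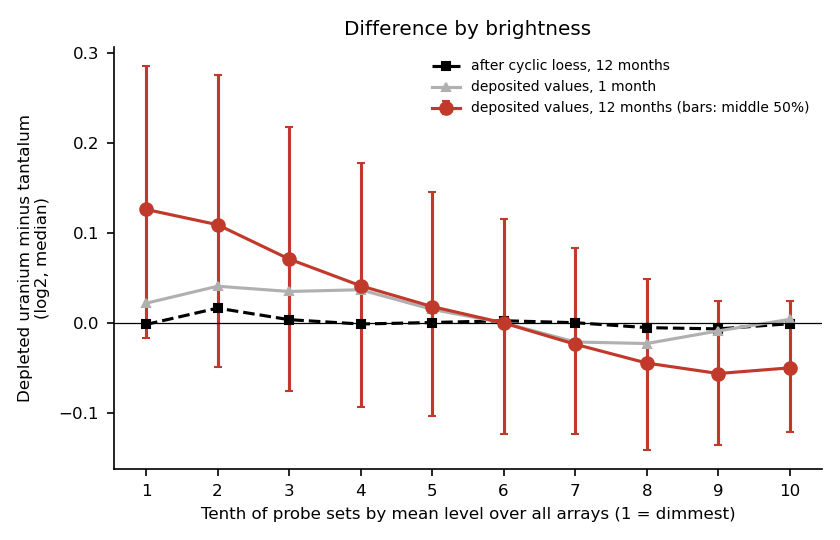
Median log2 difference, depleted uranium minus tantalum, in 10 equal parts of the probe sets ordered by mean level over 105 arrays, at 12 months as deposited (red, bars span the middle 50% of probe sets), at 12 months after cyclic loess (black dashes) and at 1 month (grey). The red line descends from 0.13 to about -0.05, and the black line stays within 0.0164 of 0.

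**Figure D3:**
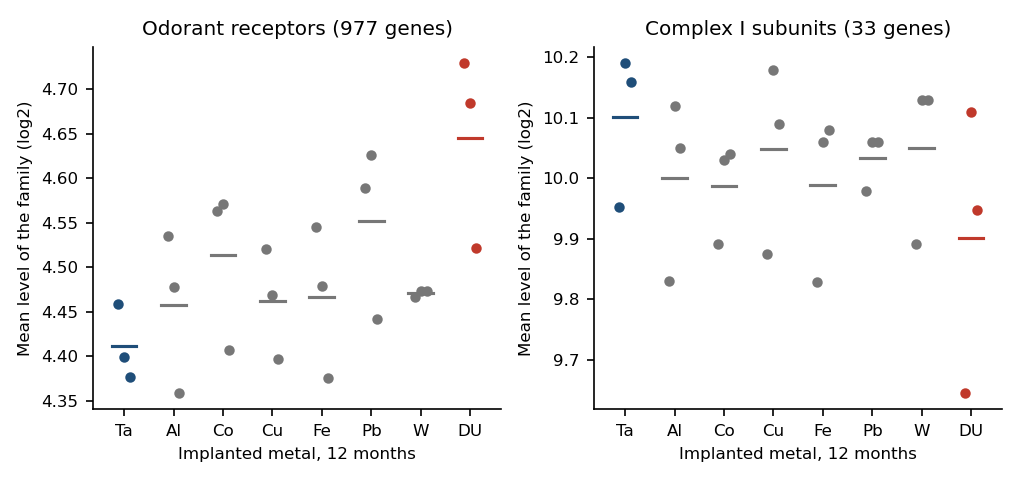
Mean log2 level of 977 odorant receptor genes (left) and 33 complex I subunit genes (right) on each array of the 8 metals at 12 months, 1 point per array and a line at the mean of the 3 arrays. The vertical axes do not start at 0. Depleted uranium has the highest mean on the left and the lowest on the right, with arrays that overlap those of other metals.

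Genes of mitochondrial energy supply lay lower with depleted uranium as groups, although none of their listed members passed the test described above. Across the 53 gene lists that were followed, 0 of 825 distinct genes passed in limma, and 76 (9.21%) had an unadjusted p below 0.05, beside 8.93% of all probe sets. With a term for the replicate number within each month (the replicate block), 7 listed genes passed. Among them were Idh1 and Prdx5, lower, and Ccl20 and Hba-a1, higher. Over all probe sets the block called 62 higher and 38 lower. The lower ones included Ndufa5, Ndufs5, Ndufb8, Uqcr10 and Uqcrq of the respiratory chain and mrpl24 of the mitochondrial ribosome. Their adjusted p-values lay between 0.0188 and 0.044. With that block in the 6 arrays alone, 0 listed genes and 0 lower probe sets passed. The respiratory chain passes electrons to oxygen and makes the proton gradient for ATP. Of its 28 listed genes, 27 lay below 0, with a median of -0.17 (-0.13 after cyclic loess), and 5 had an unadjusted p below 0.05, each lower. Ndufs1, a core subunit of complex I, read 11.42, 11.65 and 11.55 with depleted uranium and 11.70, 11.77 and 11.75 with tantalum. Its arrays did not overlap, and the difference was -0.20 ± 0.09 (adjusted p = 0.502). Sdhb, the iron-sulfur subunit of complex II, differed by -0.25 ± 0.11 and Cox5b of complex IV by -0.28 ± 0.13, with arrays that overlapped.

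All 33 Nduf genes of complex I with a probe set lay below 0, with a median of -0.20. After cyclic loess 31 of the 33 did, with a median of -0.15. This family was taken from the symbols after values had been seen. Its mean level was 9.65, 10.11 and 9.95 with depleted uranium and 9.95, 10.19 and 10.16 with tantalum, and the groups overlapped. The first depleted uranium array was the lowest of all 24 arrays of that month, and the other 18 ran from 9.83 to 10.18. Replicate 1 was also the lowest array within each of the 8 metals. Of the 33 genes, 6 had arrays without overlap, all lower with depleted uranium, which 4.45% of all probe sets were.

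The tricarboxylic acid cycle, which feeds the chain, had 14 of 16 genes below 0 and a median of -0.17. Its mean level was 10.81, 10.98 and 10.81 with depleted uranium and 11.00, 11.06 and 11.03 with tantalum, so the groups did not overlap. Idh1, the cytosolic and peroxisomal isocitrate dehydrogenase kept on this list, read 8.19, 8.43 and 8.10 against 8.71, 8.55 and 8.68. The difference was -0.41 ± 0.11 (unadjusted p = 0.000467, adjusted p = 0.118). Suclg2, a subunit of succinyl-CoA ligase, and Idh3b, a subunit of mitochondrial isocitrate dehydrogenase, differed by -0.26 ± 0.09 and -0.27 ± 0.10.

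Fatty acid uptake and oxidation had 20 of 23 genes below 0 and a median of -0.20. Acadl, the long-chain acyl-CoA dehydrogenase, read 10.19, 10.59 and 10.16 with depleted uranium and 10.74, 10.69 and 10.66 with tantalum, without overlap. The difference was -0.38 ± 0.11 (unadjusted p = 0.000801, adjusted p = 0.138). Decr1, which handles unsaturated fatty acids, read 8.25, 8.57 and 8.24 against 8.76, 8.85 and 8.76, a difference of -0.44 ± 0.13 (adjusted p = 0.171). Hadha and Hadhb, the subunits of the trifunctional protein, differed by -0.27 ± 0.11 and -0.24 ± 0.10 with overlapping arrays.

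The mitochondrial ribosome, which translates the proteins encoded in mitochondrial DNA, had 18 of 23 listed genes below 0 and a median of -0.15. Its mean level was 7.93, 8.23 and 8.21 with depleted uranium and 8.24, 8.34 and 8.32 with tantalum, so the highest depleted uranium array lay just below the lowest tantalum array. Mrpl32, a protein of its large subunit, differed by -0.45 ± 0.16 (adjusted p = 0.327). Among all 68 Mrpl and Mrps symbols, 60 lay below 0. The antioxidant enzymes had 12 of 16 below 0, and Prdx5, a peroxiredoxin of mitochondria and peroxisomes, read 7.61, 8.14 and 8.29 against 8.31, 8.25 and 8.82, with overlap (-0.45 ± 0.15, adjusted p = 0.286). The constitutive proteasome had 27 of 30 below 0 and a median of -0.12, which became 22 of 30 and -0.068 after cyclic loess.

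Slow-fibre genes had the lowest median of the 53 lists, -0.31, with all 12 below 0, and also the widest spread between pools. The mean level of the list was 10.76, 11.56 and 10.61 with depleted uranium and 11.26, 11.29 and 11.30 with tantalum. The second depleted uranium array was the highest of the 6 and the other depleted uranium arrays were the lowest, so the groups overlapped. Tnni1, the slow troponin I, read 10.74, 12.18 and 10.84 against 11.29, 11.69 and 11.75, a difference of -0.33 ± 0.38 (adjusted p = 0.864). Leaving out 1 array in turn moved the median between -0.61 and -0.15, the first without depleted uranium replicate 2. Against the other metals the depleted uranium median was 0.0073 and the tantalum median 0.33. Mb, the oxygen store myoglobin, was the slow-fibre gene with the smallest unadjusted p (-0.29 ± 0.12, adjusted p = 0.442). Fast-fibre genes had a median of -0.039 over 14 genes and the glycolysis list a median of 0.00033 over 20.

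The medians of the mitochondrial groups, the antioxidant enzymes and the proteasome moved with single pools as well. Without depleted uranium replicate 1 they came nearer to 0, at -0.079 for the respiratory chain, -0.12 for the tricarboxylic acid cycle, -0.097 for fatty acid oxidation, -0.0999 for the mitochondrial ribosome, -0.076 for the antioxidant enzymes and -0.033 for the proteasome. Without replicate 2 they lay at -0.24, -0.24, -0.35, -0.21, -0.26 and -0.16 in the same order. None of these medians changed sign with any 1 array left out.

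For the other groups the median against the other metals was -0.13 for the respiratory chain, -0.11 for the tricarboxylic acid cycle, -0.16 for fatty acid oxidation and -0.11 for the mitochondrial ribosome with depleted uranium. With tantalum it was 0.063, 0.066, 0.075 and 0.11. Bright probe sets as a whole lay lower with depleted uranium than with tantalum, as given above, by about 0.05 in the brightest parts. The slow-fibre list also lay lower than with tantalum. Against the other metals, however, its depleted uranium median was 0.0073, unlike those of the mitochondrial groups. After cyclic loess the median against tantalum was -0.12 for the tricarboxylic acid cycle, -0.15 for fatty acid oxidation and -0.10 for the mitochondrial ribosome. For the slow-fibre list it was -0.27. The part of fibre makeup or brightness in the mitochondrial values was not tested. In bulk muscle, fewer cells of a type and less RNA per cell cannot be told apart.

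**Figure D4:**
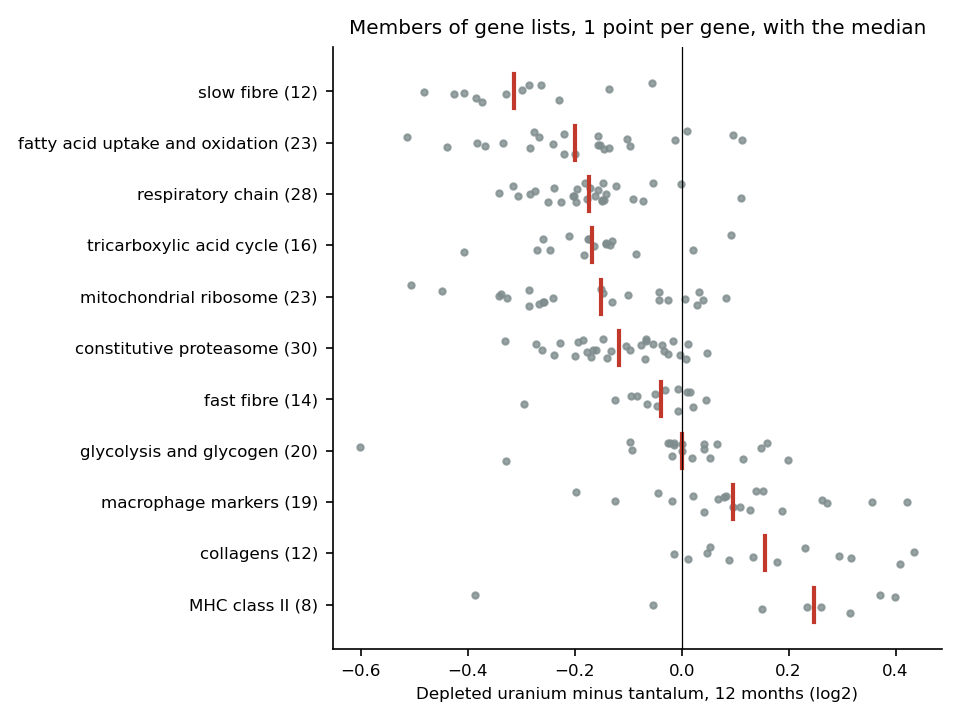
Log2 difference of each gene (grey points, horizontal axis) in 11 gene lists at 12 months, with the median of each list as a red bar and the number of genes in parentheses. Vertical scatter within a list has no meaning. The slow-fibre median is -0.31, and the collagen and MHC class II medians are 0.16 and 0.25.

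No listed gene of metal handling passed. The copper list had 8 of 10 genes below 0 and a median of -0.12, which was -0.037 without depleted uranium replicate 1 and -0.056 without tantalum replicate 2, and the iron and heme list had 13 of 19 below 0 and a median of -0.096. Metallothioneins bind zinc, copper and other metals, and their genes rise when the cell senses free metal. Mt1 differed by 0.12 and Mt2A by 0.21, both with overlapping arrays, and the list of 12 genes had a median of -0.079. Slc30a1, the zinc exporter that metal-responsive transcription also drives, read 7.28, 6.66 and 7.02 against 7.53, 7.14 and 7.35 (-0.35 ± 0.14, adjusted p = 0.410). The NRF2 list had a median of -0.022 over 19 genes, and Gsta4, a glutathione transferase, had its smallest unadjusted p (-0.41 ± 0.19, adjusted p = 0.525). Phosphate, calcium and citrate transporters, listed because the uranyl ion binds phosphate and citrate, had a median of -0.025 over 15 genes. Of the iron genes, Ftl1, the ferritin light chain, read 10.07, 10.31 and 10.59 against 9.25, 9.66 and 10.08, with a small overlap, and the difference was 0.66 ± 0.26 (adjusted p = 0.385). Its values were identical to those of 1 other probe set, TC0200003095.rn.2, so its signal cannot be given to a single gene.

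Uranium is an alpha emitter, and the genes that p53 drives after DNA damage were listed for that reason. Their median was 0.023 over 17 genes, and 10 lay above 0. In 5 of them (Cdkn1a, Gadd45a, Gadd45g, Phlda3 and Bax) all depleted uranium arrays lay above all tantalum arrays, which 7.22% of all probe sets did, and none passed. Cdkn1a, the cell cycle inhibitor p21, read 8.61, 8.65 and 8.86 against 8.43, 8.23 and 8.28, a difference of 0.39 ± 0.21 (adjusted p = 0.605). Phlda3, an inhibitor of Akt signalling, differed by 0.35 ± 0.12 (unadjusted p = 0.00466, adjusted p = 0.279). Mdm2, the ubiquitin ligase that limits p53, differed by -0.11 with overlap. The DNA repair list had a median of -0.021 over 14 genes.

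Lists of inflammatory and matrix genes mostly had medians above 0, with complement below 0, and none of their members passed against tantalum. Neutrophil markers had a median of 0.055 and mast cell and eosinophil markers 0.088. Matrix proteins had 0.071, matrix proteases and inhibitors 0.059 and fibroblast markers 0.12. With 1 array left out, the lowest medians of these lists were -0.032, 0.032, 0.0096, -0.023 and 0.033 in the same order. Complement had 6 of 11 genes below 0 and a median of -0.11, which was 0.087 without the dimmest 30% of probe sets. Interferon response genes had 10 above and 9 below 0, chemokines and cytokines 11 above and 10 below, and T, NK and B cell markers a median of 0.0245 that was -0.0423 after cyclic loess. The MHC class II list, which presents antigen to helper T cells, had the highest median of the 53, 0.25 over 8 genes, and its mean level was 6.49, 6.56 and 6.60 against 6.43, 6.46 and 6.28. Its groups did not overlap, yet RT1-Bb differed by -0.39 (adjusted p = 0.618). Collagens lay above 0 in 11 of 12 genes with a median of 0.16, among them Col1a1 at 9.80, 9.42 and 9.73 against 9.55, 9.11 and 8.99 (0.44 ± 0.25, adjusted p = 0.635). Macrophage markers had 15 of 19 above 0 and a median of 0.096, which was 0.024 without depleted uranium replicate 1 and 0.17 without replicate 2, and Cd68, a lysosomal protein of macrophages, differed by 0.020 ± 0.29. Among chemokines and cytokines, Ccl20, which draws CCR6-bearing lymphocytes, read 6.92, 7.22 and 6.89 against 6.62, 6.70 and 5.98. Its arrays did not overlap, and the difference was 0.57 ± 0.15 (unadjusted p = 0.000252, adjusted p = 0.0962). Csf1, the macrophage growth factor, read 7.97, 7.76 and 7.99 against 7.55, 7.51 and 7.49 (0.39 ± 0.13, adjusted p = 0.224). It was among the 48 probe sets that passed against the other metals.

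Other lists held single genes with small unadjusted p-values. Myc, a growth-promoting transcription factor, read 6.17, 6.95 and 6.78 against 5.83, 6.02 and 5.94, without overlap (0.71 ± 0.21, adjusted p = 0.157). Glul, the glutamine synthetase that glucocorticoids raise in muscle, read 12.05, 11.68 and 11.96 against 11.51, 11.61 and 11.35, also without overlap (0.41 ± 0.12, adjusted p = 0.173). Of the clock genes, Bmal1 (0.40 ± 0.14) and Nfil3 (0.44 ± 0.16) lay higher and Dbp (-0.39 ± 0.14) and Nr1d2 (-0.28 ± 0.11) lower, each without overlap and with adjusted p-values between 0.283 and 0.409. The labels give no hour of tissue collection, and its part in these values was not tested.

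Markers of other cells differed between pools. Adipoq, the adipocyte hormone adiponectin, read 11.35, 10.67 and 9.76 with depleted uranium and 10.26, 8.77 and 9.57 with tantalum. Its arrays overlapped, and the difference was 1.06 ± 0.51 (adjusted p = 0.530). The adipocyte list of 14 genes had 7 above 0, a median of 0.037 and a mean level between 7.61 and 8.22 with depleted uranium and between 7.75 and 7.85 with tantalum. Hba-a1, a haemoglobin chain of red cells, read 10.98, 10.66 and 9.85 against 10.07, 9.82 and 9.66 (0.65 ± 0.21, adjusted p = 0.224), and the blood list had 5 of 8 above 0, with a mean level between 6.65 and 6.88 against 6.61 to 6.68. For skin, Krt14, a keratin of the basal epidermis, had all depleted uranium arrays below all tantalum arrays (-0.39 ± 0.14, adjusted p = 0.321), whereas Krt1 differed by 0.054 with overlap. The skin and hair list had 3 of 9 above 0 and a median of -0.0315. The part of fat, blood or skin in the other values was not tested.

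None of the 21 probe sets called at 12 months passed in an earlier month. At 1 month 56 probe sets passed (0.244%), 54 lower with depleted uranium (0.235%) and 2 higher (0.00871%), at 3 months 1 lower (0.00436%) and at 6 months 0, with 1274 at an unadjusted p below 0.05 at 6 months in limma. The 17 higher probe sets had a median difference of 0.047 at 1 month, 0.085 at 3 months, 0.29 at 6 months and 0.97 at 12 months. Because the 17 were chosen for their difference at 12 months, the larger value there is a description with no test. At 6 months 15 of the 17 lay above 0, with single differences from -0.31 to 0.65. Trmu differed by -0.22 at 1 month, -0.0056 at 3 months and -0.21 at 6 months. Whether the difference at 12 months was another than that of an earlier month was tested in the same fit. Of the 21, only Hddc2, Rmdn1 and TC1300000919.rn.2 passed against 1 month, and none passed against 3 or 6 months. The choice of the 21 at 12 months itself favours such a change.

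Over all probe sets, the difference at 12 months departed from that at 1 month for 41 (0.179%), 30 upward (0.131%) and 11 downward (0.0479%), from that at 3 months for 1, upward (0.00436%), from the mean of the earlier months for the same gene, Ubap2, upward (0.00436%), and from that at 6 months for 0 in limma (1215 at an unadjusted p below 0.05). Leaving out depleted uranium replicate 1, 2 or 3 gave 24, 49 or 43 in place of 41, and leaving out tantalum replicate 1, 2 or 3 gave 24, 19 or 26. Rmdn1 went from 0.31 at 1 month to -0.47 at 12 months, a change of -0.78 ± 0.15 (adjusted p = 0.00996). Its tantalum mean was 8.60 ± 0.09 at 1 month and 9.17 ± 0.10 at 12 months (SD, n = 3), and its depleted uranium mean 8.91 ± 0.10 and 8.70 ± 0.03. Hddc2 went from 0.22 to -0.70, a change of -0.92 ± 0.20 (adjusted p = 0.0201).

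For several genes the difference moved upward between months, although at 12 months none of those named here passed. Ubap2, a ubiquitin-associated protein of stress granules, was the only probe set that passed against 3 months, with a change of 0.79 ± 0.14 (adjusted p = 0.00391). At 12 months it was 0.38 higher (adjusted p = 0.0902). Its tantalum mean was 10.02 ± 0.04 at 3 months and 9.41 ± 0.03 at 12 months, and its depleted uranium mean 9.60 ± 0.06 and 9.79 ± 0.18 (SD, n = 3). Against 3 months it missed the threshold without depleted uranium replicate 1, where 0 probe sets passed. Myc had a change of 1.47 ± 0.30 from 1 month (adjusted p = 0.00996), from -0.77 to 0.71, with the 12-month p given above. Ftl1 had the largest named change, 1.81 ± 0.37 (adjusted p = 0.00996), from -1.15 to 0.66. The probe set identical to it, TC0200003095.rn.2, is counted with it among the 41. S100a11, a calcium-binding protein, went from -0.92 to 0.47, which overlapped at 12 months (adjusted p = 0.553). Ncam1, the adhesion molecule that denervated fibres display, went from -0.91 to 0.28 (change 1.19 ± 0.27, adjusted p = 0.0232), and its arrays also overlapped at 12 months (adjusted p = 0.698).

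**Figure D5:**
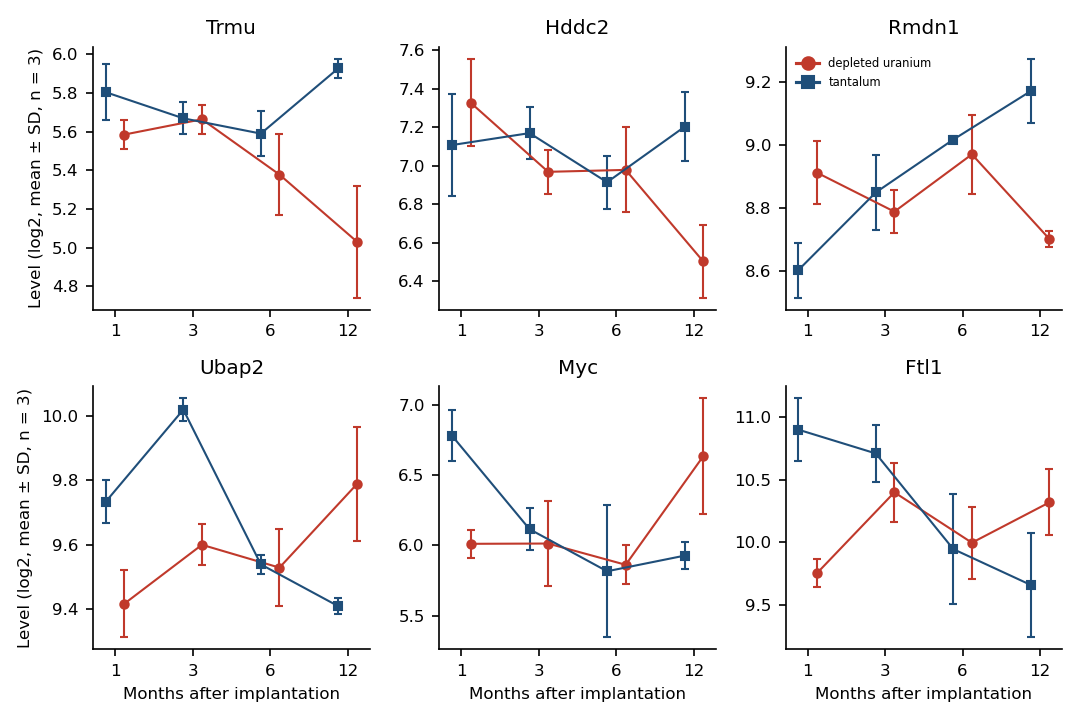
Level (log2, mean ± SD of 3 arrays) of 6 genes in depleted uranium muscle (red circles) and tantalum muscle (blue squares) at 1, 3, 6 and 12 months, with vertical axes that differ between panels. Trmu, Hddc2 and Rmdn1 stand apart downward at 12 months, while the means of Ubap2, Myc and Ftl1 are below tantalum at 1 month and above it at 12 months, where none of the 3 passed.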

How the data were processed

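Each array measured the muscle RNA of a pool of 2 to 3 rats. The values are the log2 intensities that the authors deposited, made by RMA, which subtracts background, matches the distributions of the arrays and summarises probes, with oligo under R 4.0.1, per the submitters' processing notes. Whether RMA was run once on the whole set is not given in the sources used here. The fit was made in limma 3.58.1 under R 4.3.3 (lmFit and eBayes, 1 mean per metal and month over 105 arrays and 35 groups, 70 residual and 7.25 prior degrees of freedom), two-sided, with Benjamini-Hochberg adjustment over 22954 probe sets and no filter on dim ones. Control probe sets were left out. Gene symbols came from GEO's platform annotation, updated by gene ID to RefSeq (GRCr8): 14855 probe sets could be named and 8099 could not.

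The members, the 53 gene lists (850 memberships measured) and the comparisons were chosen with earlier results of these data known, and lists were given no set test. Named genes are those with a symbol that passed with arrays not overlapping, up to 4 members per list with the smallest unadjusted p or needed for a count, and up to 8 per direction in the other comparisons. Mt1, Mt2A, Mdm2, Bax, Gadd45g, Cd68 and Tnni1, the months' F genes, the replicate block genes and the symbol families were added for their role or after their values were seen. On simulated data with 22954 probe sets, the comparison recovered 48% of the probe sets changed by 0.5 on the log2 scale and 94% of those changed by 1. The simulated noise was independent between probe sets and arrays. It held no shift with brightness and no spread shared within an array. The simulated data also held 200 changed probe sets, and more changes make the adjusted threshold easier to reach. In the real data 21 probe sets passed, so recovery there may be lower. Replicate numbers were checked and not used as pairs. The alternatives were a replicate block, filters, normalizations, weights, other sets of arrays, other thresholds and leaving out each array.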

Additional observations from a re-analysis of the deposited data

Results flagged for a closer look

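The difference between depleted uranium and tantalum changed with time for some probe sets, by a test of that change in limma. The count was 41 for 12 months against 1 month, 1 for 12 months against 3 months and 4 over the 4 months together. Those 4 were Ubap2, Trmt112, Fxyd1 and Sarnp.

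Upward changes from 1 month to 12 months, in log2 units, were 1.81 for Ftl1, 1.47 for Myc, 1.39 for S100a11, 1.19 for Ncam1 and 1.16 for TC1300000919.rn.2. They were 1.10 for Or12j5, 1.07 for Gimd1, 0.994 for Myadm and 0.904 for Ocln, a tight junction protein. Downward changes were -0.918 for Hddc2, -0.779 for Rmdn1, -0.772 for Stard10, a lipid transfer protein, and -0.765 for Pdp1, the phosphatase that activates pyruvate dehydrogenase. They were -0.635 for Pick1, -0.626 for Dtnbp1, -0.556 for Prelid3b and -0.542 for Rnf217. From 3 months to 12 months Ubap2 changed by 0.795.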

How the results depend on the processing

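Each of the 21 called probe sets kept its direction under every alternative run that included it, but the calls did not all hold. Most alternatives could not have reversed a direction. Leaving out 1 array or weighting arrays could not, because the groups did not overlap on any of the 21. The filter, the intensity trend, the replicate block, the other thresholds and the smaller sets of arrays leave the difference of the group means as it is. Only the renormalizations and the change of reference could have reversed it. The count of 21 (17 higher, 4 lower) became 5 (3 and 2) without the dimmest 30%, 15 (11 and 4) after a second quantile normalization, 4 (3 and 1) with array weights, 42 (40 and 2) with the arrays of 12 months alone, 18 (18 and 0) with the 6 arrays alone, 48 (46 and 2) with the other metals in place of tantalum, 5 (4 and 1) at an adjusted p below 0.01, 61 (50 and 11) at 0.1, and 9 (7 and 2) after cyclic loess, which was added after the data were seen. It was 25 with an intensity trend and 21 with arrays centred on their median. Leaving out 1 array gave 0 to 48 in all, 0 to 43 higher and 0 to 7 lower. Listed genes past the test numbered 1 with the other metals as reference, 1 at 0.1 and 0 to 1 with an array left out. Against the other metals the 48 became 28 without the dimmest 30% and 2 to 45 with an array left out. The count of 41 against 1 month became 19 to 49 with an array left out, that of 1 against 3 months 0 to 1, that of 1 against the mean of the earlier months 0 to 1 and, after a second quantile normalization, 9, and that of 4 over all months 0 to 7, 8 without the dimmest 30% and 9 after a second quantile normalization. The cause was not tested. The simulation, with 200 changed probe sets, recovered 48% of changes of 0.5. Changes of that size or smaller may be missed at 3 arrays a group, and more often where fewer probe sets change.

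Same-numbered depleted uranium and tantalum arrays had deviations that correlated at 0.117, 0.0892 and 0.167, and each array correlated best with its own number, a hint from the data and not from the design, so the numbers were not taken as pairs. With the replicate block the counts were 100 (62 higher, 38 lower, all 21 kept) against tantalum, 102 against the other metals, 154, 3 and 63 for the change from 1 month, 3 months and the mean of the earlier months, 85 over all months, and 7 for the listed genes. With the replicate block in the 6 arrays alone the count was 2 (2 higher, 0 lower).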
